A study of Mus musculus with 30 samples.

Results

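Toll-like receptors are the membrane receptors with which innate immune cells recognise microbial products, and 10 of the 55401 genes in the count table were examined here because their symbols name a Toll-like receptor, its co-receptor or its adaptor. They were the surface receptors *Tlr1*, *Tlr2* and *Tlr4*, the endosomal receptors *Tlr3*, *Tlr7*, *Tlr8*, *Tlr9* and *Tlr13*, the co-receptor *Cd14* and the adaptor *Myd88*. RNA sequencing of gonadal white adipose tissue (gWAT) from 30 female New Zealand Obese mice (strain NZO/HIBomDife) supplied the counts. Each of the 2 groups, diabetes-prone (DP) and diabetes-resistant (DR), held 15 mice, all fed a high-fat diet for 5 weeks, all taken at 10 weeks of age and all of the same inbred strain. They had been classed by a risk score before any of them was hyperglycaemic, so DR is a control that shared the obesity-prone strain and the diet, and no mouse on a standard diet was analysed here.

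As background, surface receptors meet ligands outside the cell. *Tlr2* pairs with *Tlr1* to bind acylated bacterial lipopeptides, and *Tlr4*, with its partner *Ly96*, binds lipopolysaccharide that *Cd14* hands over. Endosomal receptors meet nucleic acids inside the cell, and their passage to the endosome needs the chaperone *Unc93b1*. *Tlr3* binds double-stranded RNA, and *Tlr7* binds single-stranded RNA and its breakdown products, as TLR8 does in humans. *Tlr9* binds unmethylated CpG DNA, and *Tlr13*, a mouse receptor without a functional human counterpart, binds bacterial ribosomal RNA. *Myd88* links nearly all of them to the IRAK kinases and nuclear factor kappaB, whereas *Tlr3* signals through the adaptor *Ticam1*. In adipose tissue these receptors are known mainly from macrophages, and *Tlr4* and *Tlr3* are also found outside the myeloid lineage.

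The start regions of 5 receptors are shown as a description, and whether their letters bear on the members' changes was not tested. Each is the RefSeq window (GRCm38.p6) from 250 bases before the gene's start to 50 after it, 300 bases in the direction of transcription. Capitals mark matches, on either strand, to 4 short motifs that the windows were searched for. These were the PU box GAGGAA bound by the myeloid factor PU.1, the interferon response element core GAAANNGAA, the AP-1 site TGANTCA and the kappaB core GGGANTTNC. *Tlr13* (chrX:106143025-106143324, plus strand), *Tlr8* (chrX:167264280-167264579, minus strand) and *Tlr9* (chr9:106222348-106222647, plus strand) were among the receptors that rose. *Tlr2* (chr3:83841559-83841858, minus strand) was a surface receptor that rose, and *Tlr3* (chr8:45410331-45410630, minus strand) was the receptor that did not rise.
Tlr13: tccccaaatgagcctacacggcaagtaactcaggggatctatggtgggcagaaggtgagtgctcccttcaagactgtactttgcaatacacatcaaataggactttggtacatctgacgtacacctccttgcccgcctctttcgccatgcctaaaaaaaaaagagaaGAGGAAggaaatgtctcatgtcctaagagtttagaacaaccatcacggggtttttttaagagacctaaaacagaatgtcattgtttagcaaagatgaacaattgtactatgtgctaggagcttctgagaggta
Tlr8: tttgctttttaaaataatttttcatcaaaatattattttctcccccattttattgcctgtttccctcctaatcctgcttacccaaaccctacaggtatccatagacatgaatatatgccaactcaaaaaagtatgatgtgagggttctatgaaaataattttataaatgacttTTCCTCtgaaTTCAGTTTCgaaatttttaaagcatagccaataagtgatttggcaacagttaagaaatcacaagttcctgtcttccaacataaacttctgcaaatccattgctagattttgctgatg
Tlr9: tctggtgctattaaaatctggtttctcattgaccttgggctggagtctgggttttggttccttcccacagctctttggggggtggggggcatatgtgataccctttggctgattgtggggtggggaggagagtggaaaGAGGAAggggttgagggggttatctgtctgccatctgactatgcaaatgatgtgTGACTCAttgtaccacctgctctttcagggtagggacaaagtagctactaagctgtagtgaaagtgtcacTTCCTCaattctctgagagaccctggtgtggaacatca
Tlr2: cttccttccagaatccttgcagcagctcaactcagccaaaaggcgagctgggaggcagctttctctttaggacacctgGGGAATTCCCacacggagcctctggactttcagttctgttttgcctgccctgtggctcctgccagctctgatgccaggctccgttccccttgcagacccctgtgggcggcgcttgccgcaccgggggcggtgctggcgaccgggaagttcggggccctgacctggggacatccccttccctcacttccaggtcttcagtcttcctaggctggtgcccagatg
Tlr3: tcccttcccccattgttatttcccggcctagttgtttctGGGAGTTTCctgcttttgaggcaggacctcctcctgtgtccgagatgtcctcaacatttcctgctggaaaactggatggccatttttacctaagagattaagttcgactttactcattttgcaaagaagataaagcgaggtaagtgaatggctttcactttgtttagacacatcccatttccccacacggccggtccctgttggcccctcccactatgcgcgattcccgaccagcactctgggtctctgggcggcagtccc

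RefSeq start windows were matched by symbol for 7 of the 10 genes, in 8 windows. The RefSeq start equals the outermost GENCODE M21 start for *Tlr8* and *Tlr9* and lies inside the GENCODE gene by 71 bases for *Tlr13*, 159 for *Tlr2*, 700 for *Tlr3*, 1393 for *Myd88* and 5 and 864 for the windows of *Tlr1*, so those of *Tlr3* and *Myd88* and the second of *Tlr1* lie wholly inside the GENCODE gene. The PU box was in the windows of *Tlr13* (position -83 relative to the start), *Tlr8* (-77), *Tlr9* (-112 and once after the start) and 1 of the 2 windows of *Tlr1* (-23), and 28.3% of the 32851 windows of that length in the same table hold it. The interferon element core was in the windows of *Tlr8* (-67) and *Myd88* (-40), against 8.56% of windows. The AP-1 site was in that of *Tlr9* (-58), against 7.81%. The kappaB core was in the windows of *Tlr2*, where a palindrome gives overlapping matches at -172 and -171, and of *Tlr3* (-211), against 4.26%. Matches of different motifs did not overlap in these windows, and a match is a description of letters, not of binding.

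Depth was even, with totals of 28146906 to 29974243 counts per library, and 17482 genes passed a filter on low counts. Levels are given as counts per 1000000 counts (CPM) after scaling for composition, with lowest, median and highest library per group. Fold changes are DP over DR from edgeR's quasi-likelihood test, with the standard error (SE) of the log2 value and Benjamini-Hochberg adjusted p over all tested genes. The tissue label held, as 12 adipocyte markers summed to 16746 to 25223 CPM in DP and 24673 to 32079 in DR, while 6 epithelial markers summed to 1.83 to 9.63 and 2.28 to 21.5 CPM.

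All 10 members passed the count filter and all 10 differed between the groups at an adjusted p under 0.05 in edgeR's test, which 55.5% of all tested genes did. In DP mice 9 were higher, a direction called for 28.2% of genes, and *Tlr3* was lower, as were 27.3% of genes. A rise of at least 1.5-fold was called for 7 members (*Tlr1*, *Tlr2*, *Tlr7*, *Tlr8*, *Tlr9*, *Tlr13* and *Cd14*) and for 7.09% of genes. The members' median log2 fold change was 0.75, against -0.01 over all tested genes. For each of the 9 that rose, all 15 DP libraries lay above the DR median. The share of all tested genes with this pattern was not counted. *Tab2*, a gene of the same pathway that was not called (log2 0.06), showed it as well. In bulk tissue, more cells of a type and more RNA per cell cannot be told apart, and this holds for every difference given here.

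**Figure D1:**
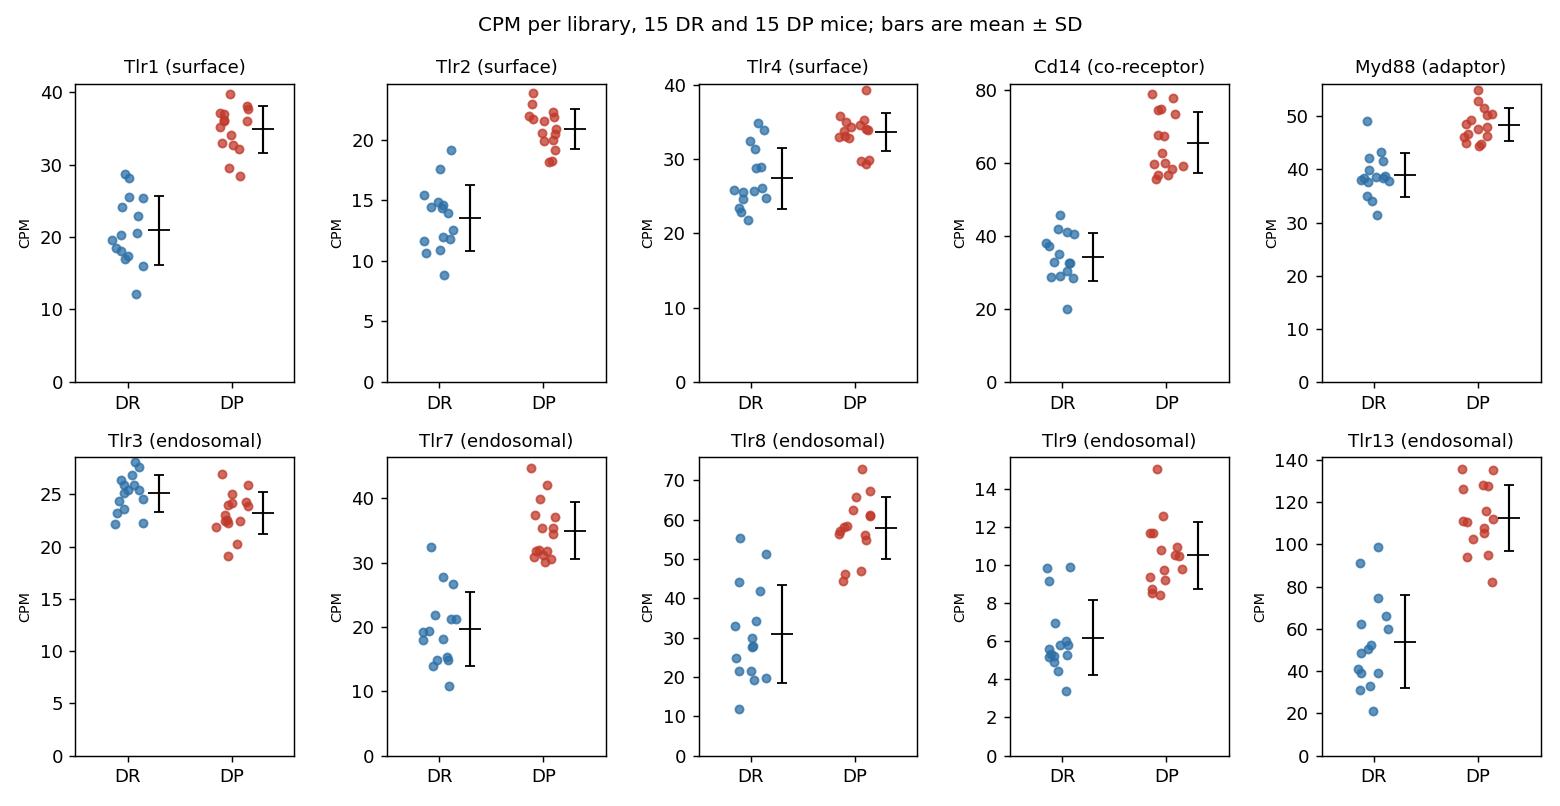
CPM of each member in every library, with DR mice in blue and DP mice in red (15 each) and the mean ± SD drawn beside the points. Cd14 was the member whose groups did not overlap, Tlr13 and Tlr8 had the widest DR spread, and the Tlr3 panel alone slopes down from DR to DP.

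Among the surface receptors, *Tlr1* rose most. It ran from 28.4 to 39.8 CPM in DP mice with a median of 36.0, and from 12.1 to 28.7 with a median of 20.2 in DR mice. Its means were 34.9 ± 3.20 and 20.9 ± 4.74 CPM (SD, n = 15 each). This is a 1.66-fold difference (log2 0.74 ± 0.088 SE, adjusted p = 3.54e-08), and DR replicate 8 was the only DR library above the lowest DP library. *Tlr2*, the shared subunit of the lipopeptide receptors, ran from 18.2 to 23.9 CPM (median 20.9) in DP and from 8.80 to 19.1 (median 13.98) in DR. It was 1.55-fold higher (log2 0.63 ± 0.077 SE, adjusted p = 5.23e-08), and DR replicate 12 reached into the DP range. Both partners of the *Tlr1* and *Tlr2* pair were thus higher in DP.

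*Tlr4*, the lipopolysaccharide receptor, rose least of the surface receptors. It ran from 29.3 to 39.3 CPM (median 33.8) in DP and from 21.8 to 34.8 (median 25.8) in DR, which is 1.23-fold higher (log2 0.29 ± 0.060 SE, adjusted p = 0.000103). DR replicates 4, 8, 12 and 13 lay above the lowest DP library, so the groups shared more of their range than for *Tlr1* or *Tlr2*. Its co-receptor *Cd14* behaved differently. *Cd14* ran from 55.7 to 78.9 CPM (median 63.0) in DP and from 20.1 to 45.8 (median 32.9) in DR, and no DR library reached the lowest DP library, a separation that 1.96% of tested genes had in this direction. The *Cd14* means were 65.7 ± 8.36 and 34.4 ± 6.63 CPM, a 1.91-fold difference with the smallest adjusted p of the 10 members (5.51e-10).

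*Tlr13* had the largest rise of the 10 members. In DP mice it ran from 82.1 to 135 CPM around a median of 111, and in DR mice from 21.3 to 98.6 around 50.5. The means of 112 ± 15.7 and 53.8 ± 21.96 CPM differed 2.09-fold (log2 1.06 ± 0.153 SE, adjusted p = 6.86e-07). DR replicates 8 and 12 were the DR libraries that exceeded the lowest DP library. *Tlr8* showed the same outline. It ran from 44.5 to 72.8 CPM (median 58.3) in DP and from 11.8 to 55.3 (median 27.8) in DR, 1.88-fold higher (log2 0.91 ± 0.151 SE, adjusted p = 6.72e-06), with the same 2 DR libraries inside the DP range.

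*Tlr7*, which lies beside *Tlr8* on the X chromosome and binds single-stranded RNA, ran from 30.2 to 44.7 CPM (median 34.4) in DP and from 10.8 to 32.4 (median 19.3) in DR. It was 1.77-fold higher (log2 0.83 ± 0.111 SE, adjusted p = 2.17e-07), and DR replicate 8 alone overlapped the DP range. *Tlr9*, the receptor for CpG DNA, had the fewest reads of the members, from 94 counts in its lowest library. It ran from 8.43 to 15.0 CPM (median 10.4) in DP and from 3.36 to 9.89 (median 5.61) in DR, 1.70-fold higher (log2 0.76 ± 0.121 SE, adjusted p = 3.42e-06). DR replicates 8, 9 and 12 reached the DP range, and the other 12 DR libraries lay below it.

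*Tlr3* went the other way by a small amount. It ran from 19.1 to 27 CPM (median 23.1) in DP and from 22.2 to 28.1 (median 25.4) in DR, and the DR median exceeded 13 of the 15 DP libraries. Its means were 23.2 ± 2.03 and 25.1 ± 1.78 CPM, 1.08-fold lower in DP (log2 -0.11 ± 0.042 SE, adjusted p = 0.0237). The ranges overlapped widely. This call was lost when libraries were scaled by their totals alone (log2 -0.08, adjusted p = 0.119) and within the lower and the higher library numbers (183 to 212 in all) taken separately (log2 -0.14 and -0.12, adjusted p = 0.0822 and 0.148), and it was the 1 call among the 10 members that changed with scaling or library range.

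*Myd88*, the adaptor, ran from 44.4 to 55.0 CPM (median 48.0) in DP and from 31.4 to 49.2 (median 38.4) in DR. Its rise was 1.24-fold (log2 0.32 ± 0.045 SE, adjusted p = 6.02e-07), with DR replicate 9 the only DR library inside the DP range. The adaptor thus rose by a smaller factor than the 7 members past 1.5-fold. Of its 2576 exonic bases, 290 (11.3%) overlap *Acaa1a* on the opposite strand, and the sources used here do not say whether counting used strand. *Acaa1a*, a peroxisomal thiolase, averaged 79.7 CPM in DP mice against 87.5 and fell (log2 -0.13, adjusted p = 0.00178).

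Other members shared sequence with neighbours to a limited extent. *Tlr3* shares 381 exonic bases (7.32%) with the antisense gene *Gm45542*, which averaged 0.150 CPM in DP mice, 0.199 in DR mice, and was not tested. Of the 3332 stretches of 50 bases in *Tlr1* transcripts, 513 (15.4%) also occur in another gene and 454 of these occur in *Tlr6*, a related receptor gene, so reads from those stretches could be assigned to either gene. *Tlr2*, *Tlr7*, *Tlr8*, *Tlr9*, *Tlr13* and *Cd14* shared no stretch of 50 bases with another gene.

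The spread among DR mice was wider than among DP mice for 9 of the 10 members. How many of all tested genes share this was not counted, so it is not shown to be particular to the members. The coefficient of variation was 40.8% in DR and 14% in DP for *Tlr13*, 40.5% and 13.6% for *Tlr8*, and 31.5% and 16.7% for *Tlr9*. The highest DR library exceeded the lowest 4.70-fold for *Tlr8* and 4.63-fold for *Tlr13*, while the DP range spanned 1.64-fold and 1.65-fold. *Tlr3* was the exception, at 7.10% in DR and 8.75% in DP. The same mice set the extremes: DR replicate 11 was lowest for 7 members, and DR replicate 8, 9 or 12 was highest for 8. How many of all tested genes share these extremes was not counted either. No test of the spread itself was made.

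Compared per kilobase of exon (FPKM), *Cd14* was the most abundant member in both groups, at 37.9 ± 4.83 in DP and 19.9 ± 3.83 in DR (mean ± SD, n = 15). In DP mice the order of mean FPKM then ran *Tlr13* (26.1), *Myd88* (18.8), *Tlr8* (16.2), *Tlr1* (10.4), *Tlr7* (8.58), *Tlr2* (6.94), *Tlr4* (6.04), *Tlr3* (4.46) and *Tlr9* (3.02). Each neighbour in that order differed by more than the larger SD, and at least 14 of 15 libraries kept each step. In DR mice *Myd88* (15.1) came before *Tlr13* (12.5), followed by *Tlr8* (8.62), *Tlr1* (6.26), *Tlr4* (4.93), *Tlr7* (4.83), *Tlr3* (4.82), *Tlr2* (4.49) and *Tlr9* (1.78). There the steps from *Cd14* to *Myd88* and from *Tlr2* to *Tlr9* exceeded the larger SD, while the others did not, and *Tlr4*, *Tlr7*, *Tlr3* and *Tlr2* stood together. *Tlr13* was above *Myd88* in 14 of 15 DP libraries and below it in 12 of 15 DR libraries.

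The 5 endosomal receptors held most of the receptor transcript. Their summed FPKM ran from 46.3 to 67.7 in DP (median 58.0) and from 16.8 to 53.4 in DR (median 30.8), and that of the 3 surface receptors from 20.3 to 24.97 (median 23.7) and from 10.8 to 20.6 (median 14.9). The endosomal share of the 8 receptors was 71.3% ± 1.25 in DP and 66.8% ± 3.21 in DR. Of the same total, *Tlr13* went from 25.1% in DR to 31.9% in DP, and *Tlr3* from 10.8% to 5.51%. These sums over members are descriptions and carry no test.

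Whether members changed by unequal factors was tested with the log2 ratio of each pair within a library, which removes scaling. All 45 pairs were compared by two-sided permutation tests of 100000 resamples and adjusted over the 45, and 35 passed. The share of pairs of other tested genes that would pass was not counted, so these counts are not shown to be particular to the members. Of the 15 pairs of a surface with an endosomal receptor, 12 passed. In all 3 pairs with *Tlr3* the surface receptor was the one relatively higher in DP. In 9 of the 12 pairs with *Tlr7*, *Tlr8*, *Tlr9* or *Tlr13* the surface receptor was relatively lower, and 3 pairs did not pass. Location at the surface or in the endosome therefore did not divide the members by direction, since *Tlr3* differed from the other endosomal receptors.

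**Figure D2:**
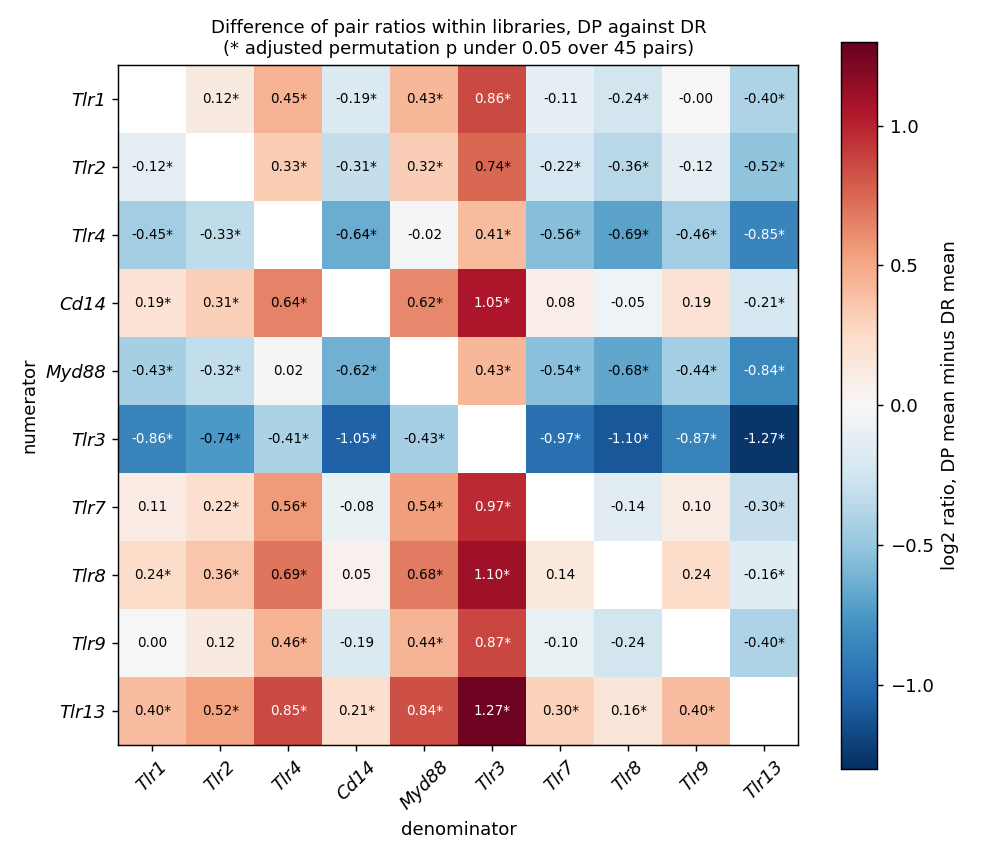
Difference between DP and DR means (n = 15 each) of the log2 ratio of the row member to the column member within libraries, in red where the row member was relatively higher in DP and in blue where it was lower. Stars mark adjusted permutation p under 0.05 over 45 pairs, and the Tlr13 row is positive and the Tlr3 row negative throughout.

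*Tlr13* rose more than every surface receptor. The ratio *Tlr4*/*Tlr13* was -0.87 ± 0.466 (mean log2 ± SD) in DR and -1.72 ± 0.189 in DP, a difference of -0.85 ± 0.130 SE (adjusted permutation p = 3.21e-05, from the smallest p of 1e-05 that the resamples can give). *Tlr2*/*Tlr13* differed by -0.52 ± 0.105 SE (adjusted permutation p = 7.5e-05) and *Tlr1*/*Tlr13* by -0.40 ± 0.085 SE (adjusted permutation p = 0.000113). In each of these, 15 of 15 DP libraries were below the DR median. *Tlr13* also rose more than *Tlr8*, with *Tlr8*/*Tlr13* at -0.16 ± 0.037 SE (adjusted permutation p = 0.000254, 13 of 15 DP libraries below the DR median).

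*Tlr3* fell relative to all 9 other members. Its fall and their rises set this sign, and the 9 ratios share *Tlr3*, so they are not separate evidence. The difference was largest against *Tlr13*, at -1.27 ± 0.180 SE, and was -0.43 ± 0.057 SE against *Myd88*, while *Tlr4*/*Tlr3* was 0.41 ± 0.069 SE higher (adjusted permutation p = 3.21e-05 for each). *Tlr4* lagged behind its own co-receptor, with *Tlr4*/*Cd14* at -0.64 ± 0.074 SE (adjusted permutation p = 3.21e-05) and all 15 DP libraries below the DR median. Within the lipopeptide receptor pair the shift was small, with *Tlr1*/*Tlr2* at 0.12 ± 0.045 SE (adjusted permutation p = 0.0205, 12 of 15 DP libraries above the DR median). This call was lost within the lower (0.13, adjusted permutation p = 0.0955) and the higher library numbers (0.11, adjusted permutation p = 0.159). Within the higher library numbers the calls of *Tlr1*/*Tlr8*, *Tlr2*/*Tlr7*, *Tlr2*/*Tlr8*, *Tlr4*/*Tlr9*, *Tlr8*/*Myd88*, *Tlr9*/*Myd88* and *Tlr13*/*Cd14* were also lost, and within the lower those of *Tlr1*/*Cd14* and *Tlr9*/*Tlr13*, each with its sign kept.

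The pairs that did not pass are bounded by their 95% intervals. *Tlr1*/*Tlr9* differed by -0.004 on the log2 scale with an interval of -0.15 to 0.14, and *Tlr4*/*Myd88* by -0.02 with an interval of -0.15 to 0.12. *Tlr1*/*Tlr7* differed by -0.11 (-0.23 to 0.02) and *Tlr2*/*Tlr9* by -0.12 (-0.28 to 0.04). The others were *Tlr7*/*Tlr8*, *Tlr7*/*Tlr9*, *Tlr7*/*Cd14*, *Tlr8*/*Tlr9*, *Tlr8*/*Cd14* and *Tlr9*/*Cd14*, of which *Tlr8*/*Tlr9* came nearest to the threshold (0.24, adjusted permutation p = 0.0515). For these pairs a difference was not shown, and neither was its absence. The unadjusted intervals of *Tlr8*/*Tlr9* (0.01 to 0.47) and *Tlr9*/*Cd14* (-0.37 to -0.003) left out 0, but neither pair passed the adjustment. Ratios with *Tlr9* depended on the constant added to CPM before the log. With 2 in place of 0.5, *Tlr7*/*Tlr9*, *Tlr8*/*Tlr9* and *Tlr9*/*Cd14* passed (adjusted permutation p = 0.0299, 0.00936 and 0.00257). *Tlr1*/*Tlr9* then changed sign to 0.08 without passing (adjusted permutation p = 0.264).

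Markers of macrophages, the cells from which most of these receptors are known in fat, moved with the group. Of all tested genes, 28.2% were called higher and 27.3% lower. Of 20 macrophage markers, 16 rose, *Cd163* and *Timd4* fell and *Mertk* and *Lyve1* did not pass. Their sum ran from 5072.7 to 7241.9 CPM in DP and from 2006.6 to 4517.3 in DR without overlap, and none was at 0 in any library. All 9 markers of lipid-associated macrophages rose as well, with a median log2 fold change of 0.99. The part of these cells in the members' rise cannot be told apart from the group, because the marker mean (log2 CPM) ran from 6.80 to 7.13 in DP and from 5.70 to 6.66 in DR. With that mean as a term in the edgeR fit 0 members and 0 of 17482 genes were called, while 1777 genes had an unadjusted p under 0.05.

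Within the groups, where risk class was constant, the members were set against that marker mean. Of 20 relations (10 members in 2 groups, adjusted over the 20), 8 passed in DR and 3 in DP. The share of all tested genes that follow the marker mean within a group was not counted, so these counts are not shown to be particular to the members. In DR, Pearson's r was 0.95 for *Tlr1* (Spearman's rho 0.94), 0.95 for *Tlr9* (rho 0.94), 0.94 for *Tlr13* (rho 0.95), 0.94 for *Tlr7* (rho 0.94), 0.94 for *Cd14* (rho 0.91) and 0.92 for *Tlr8* (rho 0.91), each at the smallest permutation p for r (1e-05, adjusted p = 3.33e-05). *Tlr2* followed at r = 0.87 (rho 0.84, adjusted permutation p = 0.000143) and *Tlr4* at r = 0.67 (rho 0.66, adjusted permutation p = 0.0131). Without the 2 libraries farthest from the median of the marker mean, r was 0.77 to 0.92 for the 7 closest members and 0.63 for *Tlr4*. These relations join measures of the same libraries, so any sampling of the tissue that varies between mice enters both.

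The relations of *Tlr3* and *Myd88* did not pass in either group. In DR, r was -0.35 for *Tlr3* (rho -0.34, adjusted permutation p = 0.232) and 0.50 for *Myd88* (rho 0.34, adjusted permutation p = 0.0818). In DP mice, whose marker mean covered a narrower range, the relations that passed were those of *Tlr7* (r = 0.72, rho 0.75, adjusted permutation p = 0.00583), *Cd14* (r = 0.65, rho 0.68, adjusted permutation p = 0.0209) and *Tlr9* (r = 0.57, rho 0.47, adjusted permutation p = 0.0474). By rank, *Tlr9* did not pass in DP (adjusted permutation p = 0.121), while *Tlr8* and *Tlr13* did (rho 0.59 and 0.57, adjusted permutation p = 0.0406 and 0.0431). Without the 2 farthest libraries, r in DP was 0.53 for *Tlr7*, 0.82 for *Cd14* and 0.44 for *Tlr9*. The other members in DP ran from -0.12 for *Tlr3* through 0.23 for *Tlr4*, 0.33 for *Myd88*, 0.36 for *Tlr1* and 0.41 for *Tlr2* to 0.51 for *Tlr13*, and by r none of them passed. Whether the relations differ between DP and DR was not tested.

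**Figure D3:**
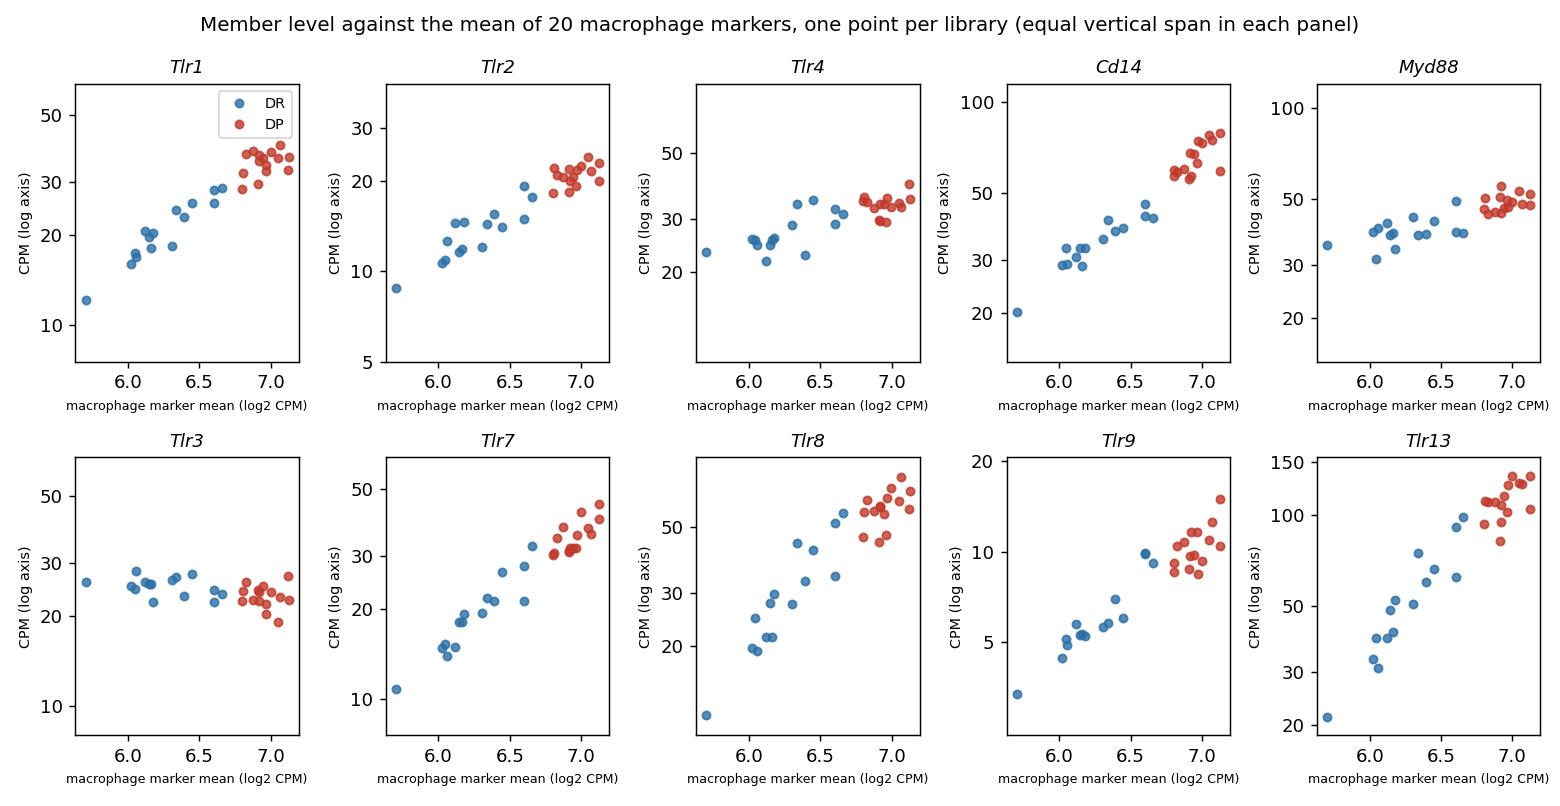
Level of each member (CPM, log axis with an equal span in every panel) against the mean log2 CPM of 20 macrophage markers, 1 point per library, DR in blue and DP in red. The points of Tlr13, Tlr8, Tlr7, Tlr1, Tlr9 and Cd14 climb within DR (r from 0.92 to 0.95), those of Tlr3 and Myd88 did not pass the test there (r = -0.35 and 0.50), and the groups share no part of the horizontal axis.

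Lists for other cell types are read against the same shares of tested genes, 28.2% higher and 27.3% lower. In a short list near these shares, the count by itself shows no shift of the list. Of 8 B cell markers 0 rose, *Blk* and *Fcmr* fell and 6 did not pass, with sums of 16.5 to 40.001 CPM in DP and 15.5 to 59.5 in DR. Of 6 plasmacytoid dendritic cell markers, *Cox6a2* rose, the defining marker *Siglech* fell (3.72 against 5.79 CPM) and 4 did not pass, with sums of 44.5 to 71.8 and 41.8 to 66.2 CPM. Of 8 conventional dendritic cell markers 1 rose and 2 fell, with sums of 28.5 to 41.1 and 33.0 to 42.1 CPM, and of 6 tested neutrophil markers 4 rose and 1 fell, with sums of 36.4 to 56.3 and 18.3 to 41.2 CPM and the defining marker *Ly6g* at 0.126 and 0.0254 CPM. Of 6 tested mast cell markers, 5 rose and *Kit* fell, with sums of 57.2 to 109.8 and 44.9 to 62.3 CPM and a median log2 fold change of 0.73. Of 5 tested monocyte markers, *Ccr2* and *Plac8* rose and *Ly6c2* and *F13a1* fell, with sums of 250.7 to 434 and 263 to 375 CPM. Of 8 T cell markers, *Cd4*, *Cd28* and *Il7r* rose, while 5 including *Cd3e* did not pass, with sums of 46.4 to 82.3 and 24.3 to 58.6 CPM. Of 8 progenitor and fibroblast markers 5 rose and *Dpp4* fell, with sums of 5521 to 9080.2 and 4129 to 6506 CPM. Lower in DP, as *Tlr3* was, were all 8 endothelial markers (633.95 to 1020.7 CPM in DP, 840.12 to 1196.4 in DR, median log2 fold change -0.35). So were all 12 adipocyte markers (median -0.58) and 5 of 6 mesothelial markers (47.0 to 135 CPM in DP, 71.8 to 223 in DR, median -0.52). No relation of *Tlr3* to these lists within the groups was tested. The part of any of these cells in the members' differences was not tested.

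The genes whose levels followed each member most closely were found by Pearson's r over 30 libraries after the group means were removed, among 12703 genes with a mean count of at least 50, as a description without a test. *Tlr13* went with *C3ar1* (r = 0.99), *Nckap1l* (0.99) and *Mpeg1* (0.98), and *Tlr8* with *Tlr13* itself (0.97), *Cybb* (0.97) and *Nckap1l* (0.96). *Cd14* went with *Hk3* (0.96), *Lyz2* (0.95) and *Tyrobp* (0.95), *Tlr1* with *Arrb2* (0.95), *Ptpn6* (0.95) and *Arhgap30* (0.94), and *Tlr2* with *Ptpro* (0.90), *P2rx7* (0.89) and *Ptpn6* (0.88). *Tlr7* went with *Ifi207* (0.94), *Ctss* (0.93) and *Igsf6* (0.92). *Tlr9* went with the MHC class II genes *H2-Ea* (0.93), *Cd74* (0.93) and *H2-Aa* (0.92), which present antigen.

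The remaining members had looser companions. *Tlr4* went with *Rp2* (0.87), *Fem1c* (0.86) and *Washc4* (0.85), *Myd88* with *Npas2* (0.83), *Sting1* (0.77) and *Socs3* (0.75), and *Tlr3* with *Klhl13* (0.75), *Ppard* (0.71) and *Fkbp4* (0.71). Among the members themselves, r was 0.92 for *Tlr7* with *Tlr13*, and it was 0.94 for *Tlr1* with *Tlr8* and 0.91 for *Tlr13* with *Cd14*, across the line between surface and endosome. *Myd88* reached at most 0.38 with any other member (*Tlr9*), and *Tlr3* ran from -0.37 with *Cd14* to 0.14 with *Myd88*.

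Of the Toll-like receptors outside the set, *Tlr6*, which pairs with *Tlr2* for diacylated lipopeptides, rose 1.26-fold (19.6 against 15.5 CPM, adjusted p = 8.9e-06). *Tlr5*, the flagellin receptor, fell 1.64-fold from 4.69 to 2.86 CPM (log2 -0.71 ± 0.114 SE, adjusted p = 3.67e-06), with all 15 DP libraries below the DR median. *Tlr11* and *Tlr12*, which bind a parasite profilin in mice, were at 1.86 and 0.541 CPM in DR and 1.72 and 0.647 in DP and did not pass. Among 5 surface partners, *Ly96*, *Cd180* and *Ly86* rose and *Lbp* and *Cd36* did not pass. *Cd180*, a receptor-like protein that forms a complex with *Ly86*, rose 2.08-fold (66.7 against 32.2 CPM, adjusted p = 9.3e-07) and *Ly86* 1.82-fold. *Ly96*, the partner of *Tlr4*, rose 1.41-fold, from 3.69 to 5.22 CPM.

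All 8 genes for transport and processing of endosomal receptors rose, against 28.2% of tested genes. *Unc93b1* went from 183 to 304 CPM (1.66-fold, adjusted p = 2.9e-09). The proteases that cleave the receptors' ectodomains rose by differing amounts, with *Ctss* 2.14-fold (212 to 454 CPM), *Lgmn* 1.93-fold (332 to 639 CPM), *Ctsb* 1.46-fold and *Ctsl* 1.31-fold. *Slc15a4*, an endolysosomal transporter, rose 1.42-fold, and the chaperones *Hsp90b1* and *Cnpy3* rose 1.21-fold and 1.08-fold. The call of *Cnpy3* was lost in the higher library numbers alone. Of 5 endolysosomal nucleases, the exonucleases *Pld3* and *Pld4* rose 1.85-fold and 1.62-fold and *Dnase2a* rose 1.69-fold, whereas the ribonucleases *Rnaset2a* and *Rnaset2b* did not pass (log2 0.14 and 0.16, adjusted p = 0.0959 and 0.0752). The *Rnaset2a* and *Rnaset2b* copies are near-identical, so their separate counts are uncertain, and both passed when libraries were scaled by totals alone.

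**Figure D4:**
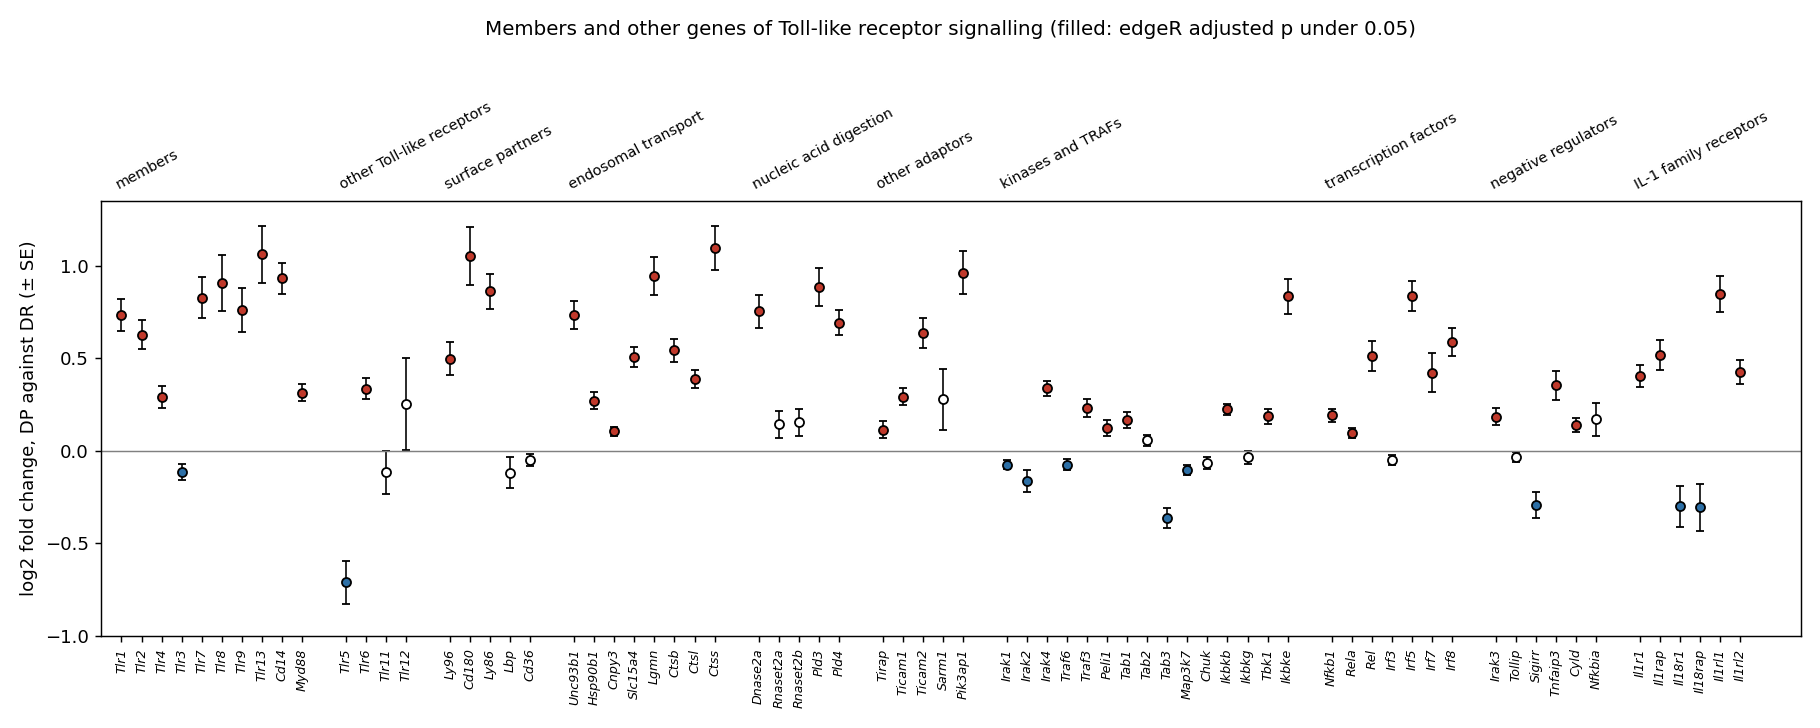
Log2 fold change of DP against DR with its SE for the 10 members and 61 other genes of the pathway, by role. Filled points passed edgeR's test (red higher, blue lower) and open points did not. The endosomal transport genes all lie above zero, and the kinases lie on either side of it.

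Of 5 other adaptors, *Pik3ap1* rose 1.95-fold, *Ticam2* 1.56-fold, *Ticam1*, which serves *Tlr3*, 1.23-fold and *Tirap*, which bridges *Myd88* to *Tlr2* and *Tlr4*, 1.08-fold, and *Sarm1* did not pass. The call of *Tirap* was lost with upper quartile scaling and within either range of library numbers. Of 15 kinases, TRAFs and their partners, 7 rose, 5 fell and 3 did not pass, against 28.2% higher and 27.3% lower over all tested genes, and their median log2 fold change was 0.06. *Irak4*, the kinase that *Myd88* recruits first, rose 1.27-fold (adjusted p = 4.11e-08) and *Ikbke* 1.78-fold. *Irak1*, *Irak2*, *Traf6* and *Map3k7*, which act below *Irak4*, fell by 0.07 to 0.16 on the log2 scale, and *Tab3* fell by 0.36. The falls of *Irak1* and *Traf6* lost their calls with scaling by totals, and that of *Traf6* also with limma-voom, an alternative to edgeR. Within the lower library numbers the falls of *Irak1*, *Irak2*, *Traf6* and *Map3k7* lost their calls, and that of *Tab3* was kept. Within the higher library numbers those of *Irak1* and *Irak2* were lost, as were the rises of *Peli1* and *Tab1*. *Peli1* also lost its call with upper quartile scaling.

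Of 7 transcription factors, 6 rose and *Irf3*, which acts below *Tlr3* and *Tlr4*, did not pass (48.3 CPM in DR and 46.7 in DP). *Irf5* and *Irf8*, which are abundant in myeloid cells, rose 1.78-fold and 1.51-fold, *Rel* rose 1.43-fold, *Irf7* 1.34-fold, *Nfkb1* 1.14-fold and *Rela* 1.07-fold. Of 6 negative regulators, *Tnfaip3* (1.28-fold), *Irak3* (1.14-fold) and *Cyld* (1.10-fold) rose, *Sigirr* fell 1.22-fold, and *Tollip* and *Nfkbia* did not pass. Of 6 interleukin-1 family receptors, which also use *Myd88*, *Il1rl1* (1.80-fold), *Il1rap* (1.43-fold), *Il1rl2* (1.34-fold) and *Il1r1* (1.32-fold) rose, and *Il18r1* and *Il18rap* fell, from 2.70 to 2.20 and from 4.93 to 3.99 CPM. The calls of *Rela* and *Il18r1* were lost within either range of library numbers, those of *Irf7*, *Irak3* and *Cyld* within the higher range, and that of *Il18rap* within the lower range and with scaling by totals. Of the 61 pathway genes, edgeR called 39 higher and 9 lower, against 28.2% and 27.3% of all tested genes, and their median log2 fold change was 0.23, against -0.01. The split was 31 and 7 in the higher library numbers and 39 and 3 in the lower, 42 and 6 with scaling by totals, and 37 and 13 with upper quartile scaling.

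On GRCm38 (GENCODE M21), *Tlr1* lies at 5:64924679-64933563 on the minus strand, *Tlr2* at 3:83836272-83841767 on the minus strand, *Tlr4* at 4:66827584-66930284 on the plus strand, *Tlr3* at 8:45395665-45411080 on the minus strand, *Tlr7* at X:167304929-167330558 and *Tlr8* at X:167242696-167264329, both on the minus strand, and *Tlr13* at X:106143204-106160493 on the plus strand. *Myd88* lies at 9:119335934-119341411 on the minus strand and *Tlr9* at 9:106222598-106226883 on the plus strand, and *Cd14*, whose transcript is a single exon block, lies at 18:36725067-36726798 on the minus strand. Counts were summed over whole genes, so no value here belongs to an exon or an isoform.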

How the data were processed

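RNA was extracted with a miRNeasy kit from gWAT and sequenced by a commercial provider on BGISEQ. The deposited values are estimated counts per gene, made by the authors with StringTie 2.1.3b on GRCm38.p6 and whole numbers as deposited; the aligner and the strand setting are not stated in any source used here. All 30 count columns and 55401 genes were used. Groups came from the disease state of each sample, and replicate numbers only name samples.

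Counts were tested with edgeR 4.0.16 (R 4.3.3; TMM, filterByExpr with minimum count 10 and minimum total 15, group alone in the model, Benjamini-Hochberg adjustment, threshold 0.05); the study used DESeq2, which was run as an alternative (1.42.0), as was limma 3.58.1. SE is the log2 fold change divided by the square root of F. CPM used effective library sizes, and FPKM divided CPM by GENCODE M21 exon length. Pair ratios used log2(CPM + 0.5), and log2 CPM elsewhere a prior count of 2. Permutation tests were two-sided with 100000 resamples (numpy 2.4.6), with ranks from scipy 1.17.1. Genes named by rule were the members, up to 4 genes of each pathway list with the smallest p, and the 3 genes most like each member; other list genes were named after their values were seen. Members and lists were chosen with earlier results of these data known. The edgeR fit and the permutation tests of differences and correlations were run on simulated data, whereas DESeq2 and limma-voom were not. The edgeR simulation changed a far smaller share of genes than was called here. P-values of group differences set the difference of means against the spread between these mice, and counts were not of unique molecules.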

Additional observations from a re-analysis of the deposited data

How the results depend on the processing

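No paired analysis was possible because replicate numbers only name samples and do not pair mice. With relative log expression or upper quartile factors, no count filter, a filter at a mean FPKM over 1, library number as a covariate, DESeq2 or limma-voom, and without the least correlated library of each group (DP replicate 4, DR replicate 7), all 10 members kept their direction and call. With each of the 30 libraries left out in turn, an alternative chosen after seeing the data except for DR replicate 7, each member was called in 30 of 30 fits (*Tlr13* log2 0.99 to 1.14, *Tlr3* -0.14 to -0.10). Against 9704 genes called in all libraries, the count was 6213 in the higher library numbers alone and 2044 with a difference of at least 1.5-fold also required. The macrophage marker mean as a covariate left 0 genes and 0 members called, as did the adipocyte marker mean (1201 genes at an unadjusted p under 0.05). Both means nearly follow the groups. The log2 fold change then changed sign, without a call, with macrophage markers for *Tlr1* (-0.021), *Tlr4* (-0.058), *Tlr7* (-0.17), *Tlr8* (-0.37), *Tlr9* (-0.26) and *Tlr13* (-0.25), and with adipocyte markers for *Tlr4* (-0.036), *Tlr7* (-0.030), *Tlr8* (-0.26), *Tlr9* (-0.10) and *Tlr13* (-0.14). The cause was not tested. *Cd14* was at 0.20 (adjusted p = 0.473) and 0.18. Pairs called ranged from 28 (higher library numbers) to 38 (pseudocount 2), surface against endosomal from 8 to 13, and no called pair changed sign. Without *Cd163*, *Lyve1* and *Timd4* among the markers, 14 relations passed instead of 11.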
